A study of Mus musculus with 2 samples.

Results

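The regions described here are 2386 short stretches of the mouse autosomes that were each covered by 4 neighbouring array probes of unusual length. Probes of the array were 45 to 60 nt long. Probes separated by gaps of at most 500 bp were joined into runs on genome build mm8, autosomal runs of exactly 4 probes were kept, and those whose mean probe length reached the 75th percentile (56.5 nt) were taken. They made up 2386 of the 9376 autosomal 4-probe runs (25.4%) and of 21369 runs in all. No measured signal entered this choice. The other 6990 autosomal 4-probe runs served as the comparison and are called the shorter-probe runs.

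Hypothalamic genomic DNA of female mice was cohybridised as P21 (21 days after birth) against P0 (newborn) on 2 two-colour arrays, A and B. The strain of both ages was recorded as C57BL/6J mixed with C3H/HeJ, and their genotype as non-agouti. Array A carried P0 DNA in Cy5 and P21 DNA in Cy3, and array B the reverse. The series speaks of biological replicates without giving the number of animals or any pooling. Every p-value thus rests only on differences between these 2 arrays, and in limma largely on such differences pooled over all runs tested. The hypothalamus is a mixture of cell types, and no sorting by cell type is described, so a change within a cell type and a change in the share of cell types cannot be told apart.

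DNA methylation at CpG sites is copied at cell division and is rebuilt in part while the brain matures, when neurons complete their differentiation and glia multiply. The method used here, methylation-specific amplification microarray (MSAM), reads it through a pair of restriction enzymes that share the site CCCGGG. The methylation-sensitive SmaI leaves blunt ends at unmethylated sites, and XmaI afterwards leaves overhangs at the methylated sites that remain. Linkers join only the overhangs, and PCR then amplifies fragments with methylated sites at both ends. A value above 0 on the log2 scale of P21 over P0 therefore stands for more amplified fragment at P21. It is a relative value within an array and not a percentage of methylated copies.

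The 2386 runs held 9544 probes by design, and 6732 of these (70.5%) had the full length of 60 nt. In the shorter-probe runs 15.9% of the probes had that length. Only 2.27% of the probes in the longest-probe runs were under 50 nt, and the shortest was 46 nt. Outlier flags removed 124 of these probes and left 117 runs with fewer than 4 probes, but all 2386 runs kept enough probes to be tested. The runs spanned 98 to 1625 bp with a median of 780 bp, against a median of 534 bp for the shorter-probe runs. Their base composition, genes and restriction sites were not analysed here.

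Longest-probe runs were called higher at P21 about as often as runs in general, and they carried a larger share of lower calls than the shorter-probe runs. With limma, at a Benjamini-Hochberg adjusted p under 0.05 over all 18761 runs tested, 180 of 2386 (7.54%, 95% Wilson interval 6.55 to 8.67%) were higher at P21 and 108 (4.53%, 3.76 to 5.44%) were lower. The background over all runs tested was 7.65% higher and 3.99% lower. Both backgrounds lie within these intervals. Of the shorter-probe runs, 625 (8.94%) were called higher and 210 (3.0%) lower. By mean probe length, those of 45 to 48 nt gave 6.73% higher and 1.34% lower. Those of 48.25 to 52.25 nt gave 10.2% and 3.90%, and those of 52.5 to 56.25 nt gave 9.86% and 3.77%. The lower shares of these longer classes lie within the interval of the longest-probe runs. Among called runs, 62.5% were higher at P21 in the longest-probe runs and 74.9% in the shorter-probe runs. These intervals cover counting error over regions only, and regions on 1 array are not replicates of an age. The lower calls were the less stable of the pair: with normexp, a model-based background correction, followed by a loess fit of the dye bias, 18 of the longest-probe runs (0.754%) and 161 of the shorter-probe runs (2.30%) were called lower, which turns their order. Under that setting 88.2% of the called longest-probe runs were higher, against 76.7% of the called shorter-probe runs.

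Large changes ran almost wholly towards higher signal at P21. The rule of size required a mean of 1 log2 unit or more in either direction, together with a 1.5-fold or larger change of that direction in A and in B. It was met by 93 longest-probe runs (3.90%) in the higher direction and by 11 (0.461%) in the lower direction. The background by the same rule was 3.71% higher and 0.501% lower over all runs tested, and the shorter-probe runs gave 4.64% and 0.315%. Both shares of the longest-probe runs lay close to the background. Of the 180 runs called higher by limma, 94 differed by at least 2-fold, 13 by at least 4-fold and 2 by at least 8-fold. Of the 108 called lower, 11 differed by at least 2-fold and 0 by at least 4-fold.

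Averaged over the arrays, the bulk of the distribution lay slightly below that of the shorter-probe runs. The median log2 ratio of the longest-probe runs was -0.045, with quartiles of -0.23 and 0.15, and 44.5% of the runs lay above 0. The median of the shorter-probe runs was 0.0039, and 50.8% lay above 0. By array, the medians of the longest-probe and shorter-probe runs were alike in A (-0.00064 and -0.00048). In B they were -0.069 and 0.033, so the lower median came from B. The mean over longest-probe runs was 0.048 in A and -0.032 in B. For the shorter-probe runs it was 0.070 in A and 0.081 in B. The difference was therefore -0.022 in A and -0.11 in B, with a mean of -0.068 ± 0.065 (SD, n = 2 arrays). It had the same sign on both arrays, but its size was close to the spread between them. An exact two-sided sign permutation over 2 arrays cannot give a p below 0.5. The arrays carried opposite dyes, so this spread holds any dye effect as well as the difference between replicates. With a loess fit of the dye bias the difference was -0.051 in A and -0.073 in B.

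The difference in mean kept its sign against each class of shorter-probe runs. The 9376 runs were split into quartiles of mean probe length, with 2319 runs at 45 to 48 nt, 2206 at 48.25 to 52.25 nt, 2465 at 52.5 to 56.25 nt and the longest-probe runs at 56.5 to 60 nt. The difference from the first of these was -0.013 in A and -0.12 in B. From the second quartile it was -0.0084 and -0.14, and from the third -0.044 and -0.083. The mean differences were -0.066 ± 0.076, -0.075 ± 0.094 and -0.063 ± 0.028 (SD, n = 2 arrays). All had the same sign on both arrays, and the first and second were no larger than their own spread. Medians in A did not all go this way: -0.00064 in the longest-probe runs, against 0.012, -0.039 and 0.017 in these quartiles.

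Within the longest-probe runs the means fell on both arrays over the length classes given here. Runs with a mean probe length of 56.5 to under 58 nt (804 runs) had a mean log2 ratio of 0.093 in A and 0.030 in B. From 58 to under 59 nt (503 runs) the means were 0.076 and -0.018, and from 59 to under 60 nt (469 runs) they were 0.035 and -0.047. The 610 runs whose probes all had 60 nt had means of -0.024 in A and -0.11 in B. Each step between these classes lowered the mean on both arrays. Inside the first of them the means did not fall with length. Runs of exactly 56.5 nt had means of 0.069 in A and 0.0019 in B. Those of 57 to under 58 nt (509 runs) had 0.108 and 0.048. Runs made of 60-nt probes alone differed from the other longest-probe runs by -0.097 in A and -0.11 in B (mean -0.103 ± 0.0089, SD, n = 2 arrays). This difference exceeded the spread between arrays, although 2 arrays still allow no p below 0.5 in the exact sign permutation.

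Calls shifted along the same scale. The share called higher was 8.58% at 56.5 to under 58 nt, 8.35% at 58 to under 59 nt, 7.68% at 59 to under 60 nt and 5.41% at 60 nt. The share called lower over the same classes was 3.36%, 4.17%, 5.76% and 5.41%. Inside the first class the share called higher was 6.49% at exactly 56.5 nt and 9.82% at 57 to under 58 nt. At 60 nt the directions were equally frequent, with 33 runs called higher and 33 called lower. The 60-nt runs were also the dimmest of these classes. Their median log2 intensity was 8.74, and 78.2% of their probes were well above background in both channels on both arrays. The part of brightness in this trend was not tested beyond the values by brightness given further on.

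**Figure D1:**
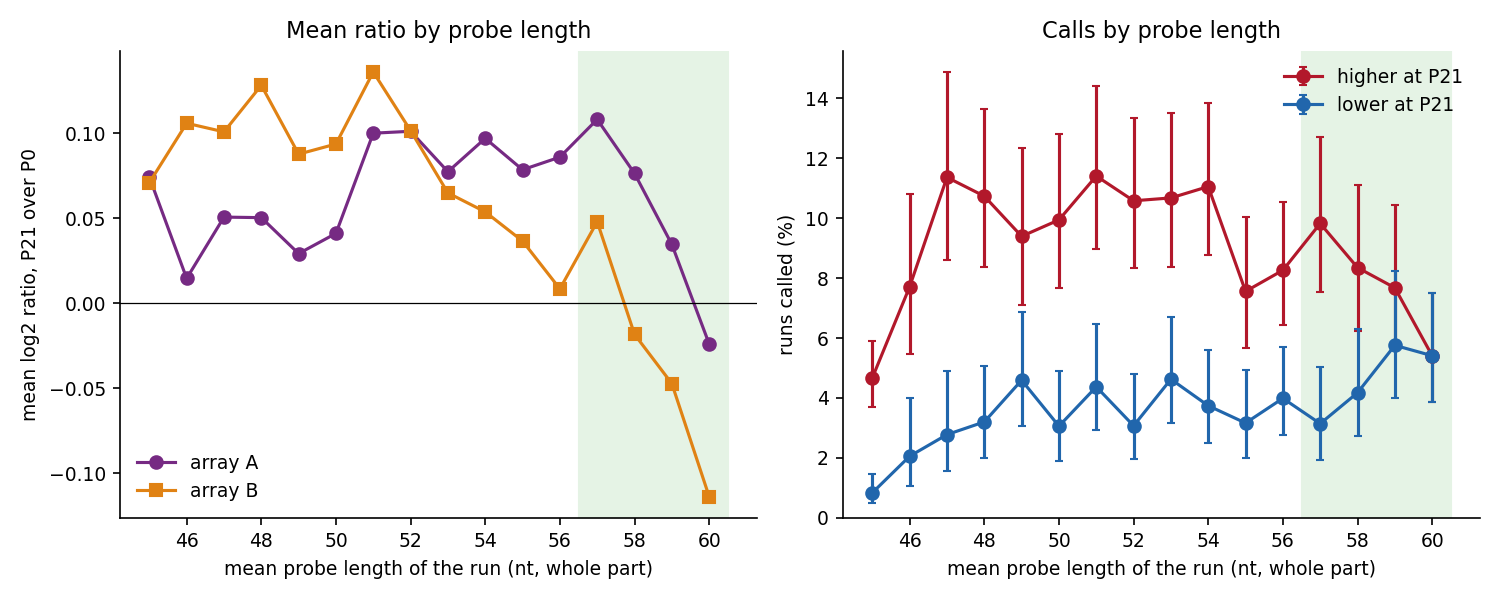
The left panel plots the mean log2 ratio of P21 over P0 for all autosomal 4-probe runs in 16 classes of mean probe length (whole part of the length in nt), with 1 line for each array. The right panel plots the percent of runs called higher (red) and lower (blue) by limma in the same classes, with 95% Wilson intervals as bars. Shading starts at the 56.5 nt threshold, and class 56 holds runs from both sides of it. Both arrays drop from class 57 to class 60, where the means were -0.024 and -0.11 and where both directions were called at 5.41%.

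Values just inside and just outside the threshold are given as a description. The 154 runs of exactly 56.5 nt, just inside, had means of 0.069 in A and 0.0019 in B, with 10 called higher (6.49%) and 6 lower (3.90%). The 259 runs of 56.25 nt, just outside, had means of 0.125 and 0.018, with 31 called higher (11.97%) and 11 lower (4.25%). The runs just inside thus had lower means in both arrays and a smaller share called higher. Their medians were not lower, at 0.044 in A and -0.040 in B, against 0.033 and -0.055 just outside. The 95% Wilson intervals of the shares called higher overlapped (3.57 to 11.5% inside and 8.56 to 16.5% outside). Inside runs that held both long and short probes, probe length did not go with the same difference. In 1155 longest-probe runs that held both kinds, 60-nt probes minus probes of at most 55 nt in the same run differed in log2 ratio by 0.018 in A and by 0.0047 in B (mean 0.011 ± 0.0094, SD, n = 2 arrays). In these runs no lowering with length was seen between probes of a run, and their 60-nt probes were dimmer by 0.39 log2 units. Runs made of 60-nt probes alone hold no shorter probe and could not enter this comparison.

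The arrays differed by less in the longest-probe runs than in the shorter-probe runs. Over the 2386 runs the log2 ratios of array A and array B had a Pearson r of 0.820 and a Spearman rho of 0.666, against 0.744 and 0.430 over the 6990 shorter-probe runs. The points of such a correlation share the same DNA, array and background, so these values are descriptions. The arrays differed by a median of 0.157 log2 units in the longest-probe runs and 0.221 in the shorter-probe runs. The sign was the same on both arrays in 74.7% of the longest-probe runs and in 61.0% of the shorter-probe runs. From the shortest to the longest quartile of probe length, r was 0.640, 0.771, 0.804 and 0.820, and the median absolute difference was 0.260, 0.223, 0.194 and 0.157 log2 units. Over these quartiles r rose and the difference between arrays shrank. Within the longest-probe runs r did not rise with length: it was 0.848 at 56.5 to under 58 nt, 0.805 at 58 to under 59 nt, 0.822 at 59 to under 60 nt and 0.772 at 60 nt. With normexp background correction and loess the order of r turned, to 0.810 in the longest-probe and 0.829 in the shorter-probe runs, while the median absolute difference stayed smaller in the longest-probe runs (0.123 against 0.139). With normexp alone r was 0.0470 in the longest-probe and 0.193 in the shorter-probe runs.

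**Figure D2:**
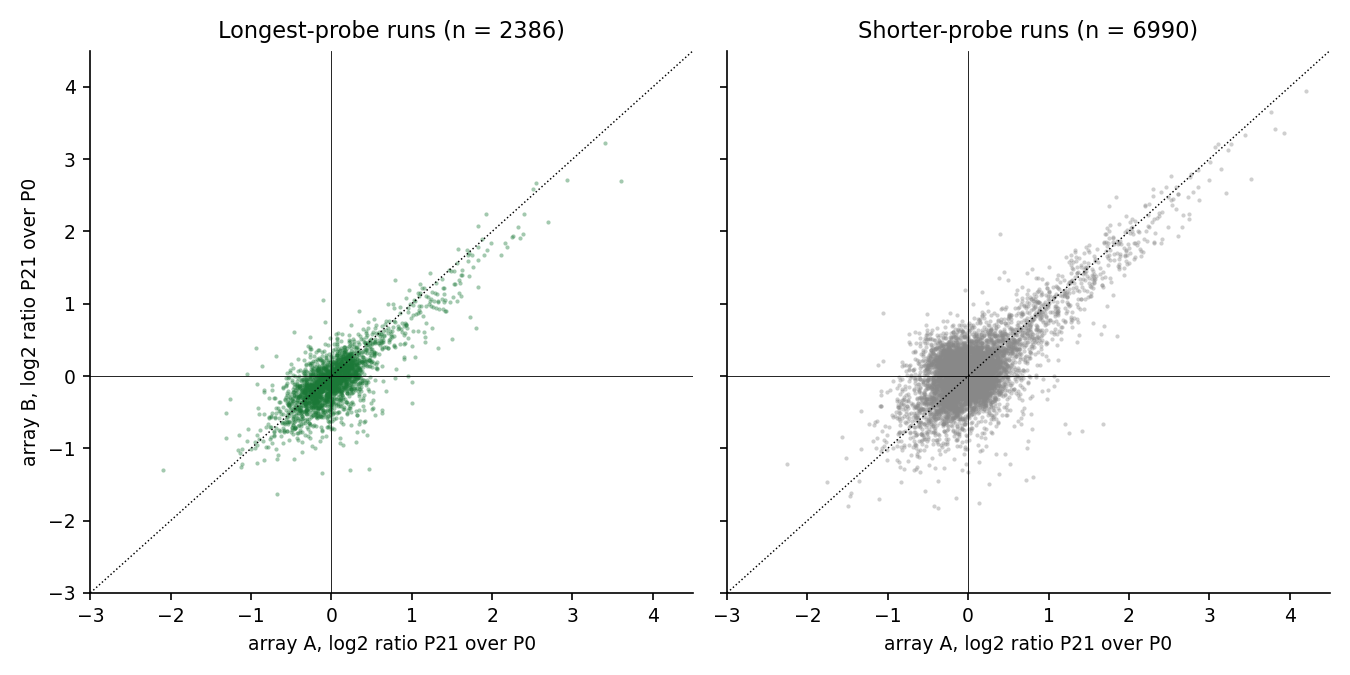
Each point is 1 run, placed by its log2 ratio of P21 over P0 in A (horizontal axis) and in B (vertical axis), for the 2386 longest-probe runs (left) and the 6990 shorter-probe runs (right). The dotted line marks equal values. The longest-probe runs lie closer to the line, with a median absolute difference of 0.157 against 0.221, and both groups reach far further towards higher than towards lower ratios.

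Longest-probe runs were dimmer than the shorter-probe runs. Brightness is given as the mean log2 processed intensity over both ages, arrays and the probes of a run. Its median was 10.1 in the longest-probe runs (quartiles 6.98 and 12.3) and 10.7 in the shorter-probe runs (8.37 and 13.2). From the shortest quartile of probe length upwards, the medians of the shorter-probe runs were 9.38, 11.9 and 11.4. By the median, the longest-probe runs were thus brighter than the quartile with the shortest probes. The means of the longest-probe runs differed from those of the shorter-probe runs by -1.17 in A and -1.06 in B (mean -1.11 ± 0.081, SD, n = 2 arrays). Of the probes, 86.0% were well above background in both channels on both arrays, against 95.6% in the shorter-probe runs. All kept probes met that condition in 1898 longest-probe runs (79.5%) and in 6305 shorter-probe runs (90.2%). No probe met it in 175 longest-probe and 40 shorter-probe runs. Among the longest-probe runs, P21 alone was above background at no probe in 34, P0 alone in 5 and both ages in 54.

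A further mark of dim probes was a deposited ratio of exactly 0. It was found at 234 probes of the longest-probe runs in A (2.48%) and at 281 in B (2.98%). The shares in the shorter-probe runs were 0.396% and 0.508%. At each of these probes neither age was well above background on that array, so the 0 there is not a measured equality of the ages. They lay in 167 longest-probe runs in A and in 188 in B.

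Set against shorter-probe runs of the same brightness quartile, the longest-probe runs showed opposite departures at the dim and at the bright end. All 4-probe runs were split into quartiles of brightness at log2 intensities of 8.12, 10.54 and 13.0. The groups still differed in brightness inside the outer quartiles. Median log2 intensity was 5.75 against 7.06 in the dimmest quartile and 13.4 against 14.0 in the brightest. In the dimmest, 58.8% and 80.4% of probes were well above background in both channels on both arrays. The part of this remaining difference was not tested. In the dimmest quartile, with 805 longest-probe and 1539 shorter-probe runs, 10.4% of the longest-probe runs were called lower, against 5.46%, and 4.97% were called higher, against 2.79%. In the second quartile (472 and 1872 runs) the shares were alike, with 9.53% and 9.46% higher and 3.81% and 3.26% lower. In the third quartile (733 and 1611 runs) 10.6% of the longest-probe runs were called higher, against 16.4%, and 0.819% were called lower, against 2.61%. In the brightest quartile (376 and 1968 runs) 4.52% were called higher, against 7.16%, and 0 were called lower, against 1.17%. A count of 0 in 376 runs has a Wilson upper bound of 1.01%. The lower calls of the longest-probe runs thus lay mostly among dim runs (84 of 108 in the dimmest quartile).

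The mean ratios followed brightness as well. Longest-probe minus shorter-probe runs gave -0.11 in A and -0.081 in B in the dimmest quartile. The second gave -0.053 and -0.12, and the third -0.051 and -0.084. In the brightest quartile the arrays disagreed, with a difference of 0.16 in A and -0.015 in B. In 3 of the 4 quartiles the difference thus kept its sign on both arrays. Averaged over quartiles of brightness, each weighted by its number of longest-probe runs, it was -0.039 in A and -0.079 in B. This weighting gives the brightest quartile the least weight.

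Agreement between the arrays differed with brightness too. From the dimmest to the brightest quartile, r was 0.658, 0.917, 0.920 and 0.676 in the longest-probe runs and 0.443, 0.725, 0.926 and 0.753 in the shorter-probe runs. It was therefore higher in the longest-probe runs in the 2 dimmer quartiles and lower in the 2 brighter ones. The median absolute difference between A and B was 0.213, 0.125, 0.137 and 0.139 log2 units in the longest-probe runs, and 0.284, 0.216, 0.171 and 0.234 in the shorter-probe runs, so it was smaller in the longest-probe runs in each quartile.

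**Figure D3:**
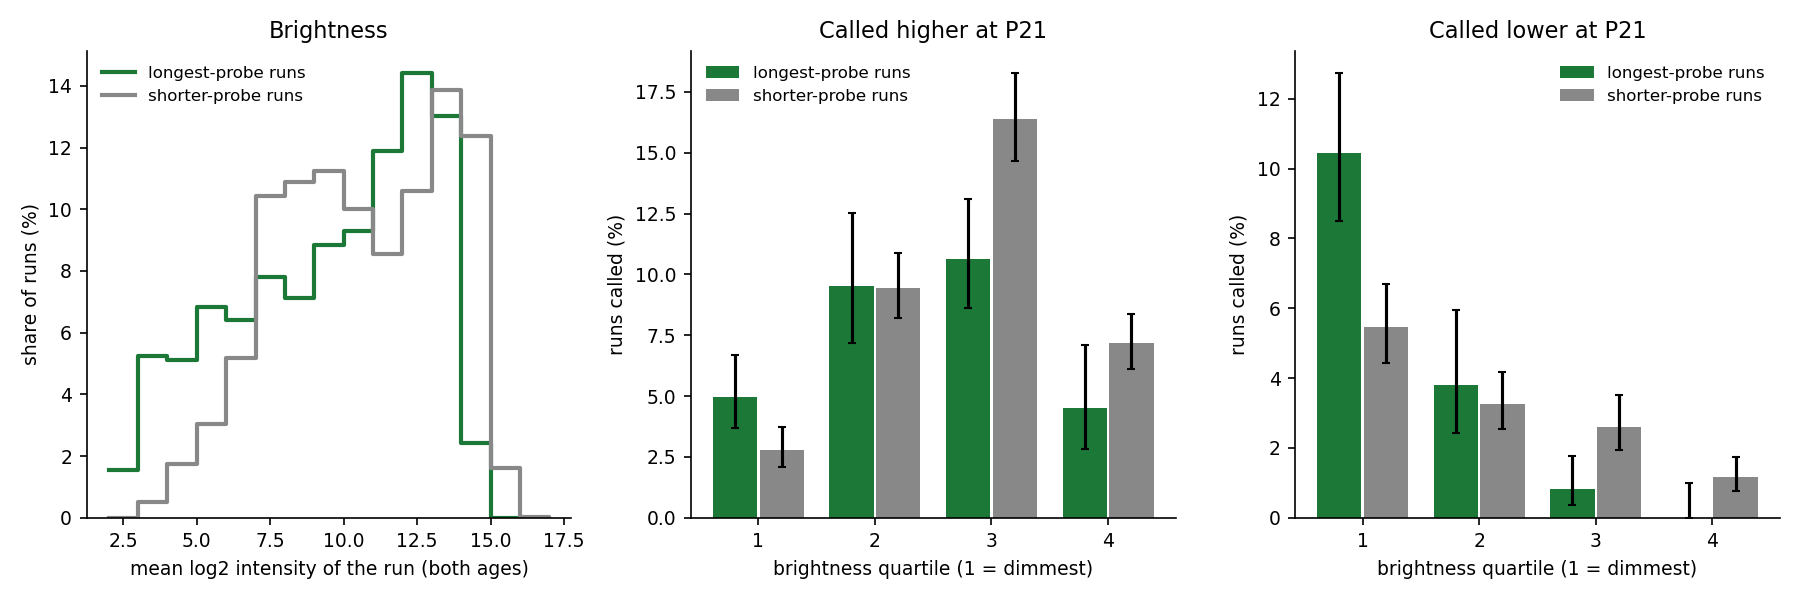
The left panel shows the distribution of mean log2 intensity in the longest-probe runs (green) and the shorter-probe runs (grey), as percent of runs per log2 unit. The other panels show the percent of runs called higher and lower at P21 by limma in each quartile of brightness, with 95% Wilson intervals as bars. Lower calls of the longest-probe runs fall from 10.4% in the dimmest to 0 in the brightest quartile, and in the third quartile higher calls stand at 10.6% against 16.4%.

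The length of genome that a run spans also differed between the groups. Of the longest-probe runs, 40.7% fell in the longest quartile of span (871 to 1626 bp), against 19.7% of the shorter-probe runs. In that quartile 6.80% of the longest-probe runs were called higher and 6.80% lower, and the shorter-probe runs gave 7.68% and 5.58%. In the shortest quartile of span, 2.08% of the longest-probe runs were called higher and 3.11% lower, against 6.80% and 1.91%. Within quartiles of span, weighted by their numbers of longest-probe runs, the mean difference was -0.022 in A and -0.084 in B. This calculation was added after the data had been seen. From the shortest quartile of span upwards, the difference in A was -0.010, 0.036, -0.026 and -0.051. In B it was -0.10, -0.12, -0.11 and -0.048, so the arrays disagreed in sign in the second quartile.

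Runs called higher were mostly uniform in sign along their probes. The 180 runs had a median log2 ratio of 1.02 (0.53 to 3.31), and in 171 of them (95%) every kept probe was above 0 on both arrays. The 108 runs called lower had a median of -0.66 (-1.70 to -0.52), with every kept probe below 0 on both arrays in 81 (75%). Of the 2098 runs that were not called, 26.3% had all probes of 1 sign on both arrays. Calls were made on the mean of these same probes, so a uniform sign in called runs follows in part from the call. In the shorter-probe runs the shares were 97.1% (called higher), 81.0% (called lower) and 17.2% (not called). The longest-probe runs called lower had a median log2 intensity of 6.64 (3.47 to 12.6). Their median span was 992 bp, against 766 bp for the longest-probe runs called higher. The runs called higher had a median log2 intensity of 10.7, and those not called 10.3. At P0 alone the medians were 10.1 for the runs called higher and 10.4 for those not called.

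The largest difference was at chr15:102846563-102847189 (mm8), whose probes had a mean length of 57.25 nt. Its log2 intensity was 11.7 in A and 11.5 in B at P21, and 8.34 and 8.24 at P0. Its log2 ratio was 3.40 in A and 3.22 in B (mean 3.31 ± 0.13, SD, n = 2 arrays), a 9.93-fold difference with a limma adjusted p of 0.000201. P21 was the brighter age on both arrays, and the outermost probe on the low-coordinate side gave smaller ratios (2.60 and 1.97) than the other 3 (3.52 to 3.80).

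The next in size was chr12:109885926-109886570, with log2 ratios of 3.61 in A and 2.70 in B (mean 3.15 ± 0.64, 8.90-fold, limma adjusted p = 0.000492). Its 4 probes ranged from 3.54 to 3.67 in A and from 2.59 to 2.79 in B, so the arrays differed more than the probes did. At chr10:44575042-44575759 the log2 ratios were 2.94 and 2.72 (mean 2.83 ± 0.15, 7.10-fold, limma adjusted p = 0.000250). Here the arrays differed by little beside the size of the change.

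Of the other 7 runs among the 10 highest, 4 reached a log2 ratio above 2 on both arrays with a mean of at least 2.32. The run at chr17:83454295-83454745 had log2 ratios of 2.55 and 2.67 (6.11-fold). At chr9:41449115-41449764 they were 2.51 and 2.59 (5.86-fold). These were the runs of this set whose arrays differed least, with SDs of 0.083 and 0.056. The run at chr5:112242528-112243251 had log2 ratios of 2.70 and 2.13 (5.34-fold), and that at chr11:52730427-52731347 had 2.39 and 2.25 (4.99-fold). The remaining runs were near a 4.5-fold difference, at chr2:29408304-29408964 with log2 ratios of 2.32 and 2.06 (4.56-fold) and at chr5:101806537-101807062 with 2.39 and 1.96 (4.51-fold). The last was chr7:49216403-49217159 with 2.34 and 1.91 (4.36-fold), the only one of the 10 made of 60-nt probes alone.

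All probes of all 10 highest runs were above 0 on both arrays, and their log2 intensities lay between 9.94 and 11.9. They were spread over 9 chromosomes. Each passed the limma threshold in all 9 alternatives that keep the runs as they are, with mean log2 ratios of at least 1.71 and an adjusted p of at most 0.0139.

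The run with the largest mean difference in the lower direction, over all kept probes, was chr10:30499838-30500482. Its log2 intensity at P21 was 5.26 in A and 6.25 in B, and at P0 it was 7.37 and 7.55. Its log2 ratio was -2.10 in A and -1.30 in B (mean -1.70 ± 0.57, SD, n = 2 arrays), a signal 3.25-fold lower at P21 with a limma adjusted p of 0.00307. Both arrays gave the same direction at each of its 4 probes.

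At chr11:32633023-32634132, made of 60-nt probes alone, the log2 ratios were -1.12 and -1.26 (mean -1.19 ± 0.094, limma adjusted p = 0.00225). At chr5:122070575-122071769 they were -1.11 and -1.21 (mean -1.16 ± 0.071, limma adjusted p = 0.00239). This run was the brightest of the 10 lowest, with a log2 intensity of 11, and the only one of them that still passed with normexp background correction and loess (mean -0.98, limma adjusted p = 0.00361). None of the 10 passed with normexp alone, and 8 of 10 passed with the median of a run's probes in place of the mean.

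The arrays differed most among these 10 at chr2:172626883-172627354, where the log2 ratios were -0.68 in A and -1.63 in B (limma adjusted p = 0.0212). With the median of its probes this run was no longer called (mean over arrays -1.35, limma adjusted p = 0.0895). At chr2:164553363-164554077 they were -1.16 and -1.03, and at chr1:74749003-74749953 they were -1.12 and -1.01 with a log2 intensity of 8.80. At chr9:42746594-42747191 they were -1.01 and -1.01. In these runs every probe was lower at P21 on both arrays.

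In the other 3 of the 10 lowest runs some probes did not measure both ages. At chr11:33411799-33413091 the log2 ratios were -1.14 and -1.06, but P21 was well above background on both arrays at 0 of its 4 probes and P0 at 1. With the median of its probes the run gave -0.71 and was no longer called (limma adjusted p = 0.106). At chr9:98104622-98105735 they were -1.31 and -0.86, with P21 well above background on both arrays at 2 of 4 probes. With probes well above background only, its mean moved from -1.09 to -1.78, beyond the -1.71 of chr10:30499838-30500482 under that setting. At chr6:134178306-134178762, with 3 kept probes, they were -0.93 and -1.20, with P21 well above background on both arrays at 1 of 3. Their single probes ranged from -3.69 to 0.0084, so these means rest on probes that disagree. The median log2 intensity of the 10 lowest runs was 6.78.

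**Figure D4:**
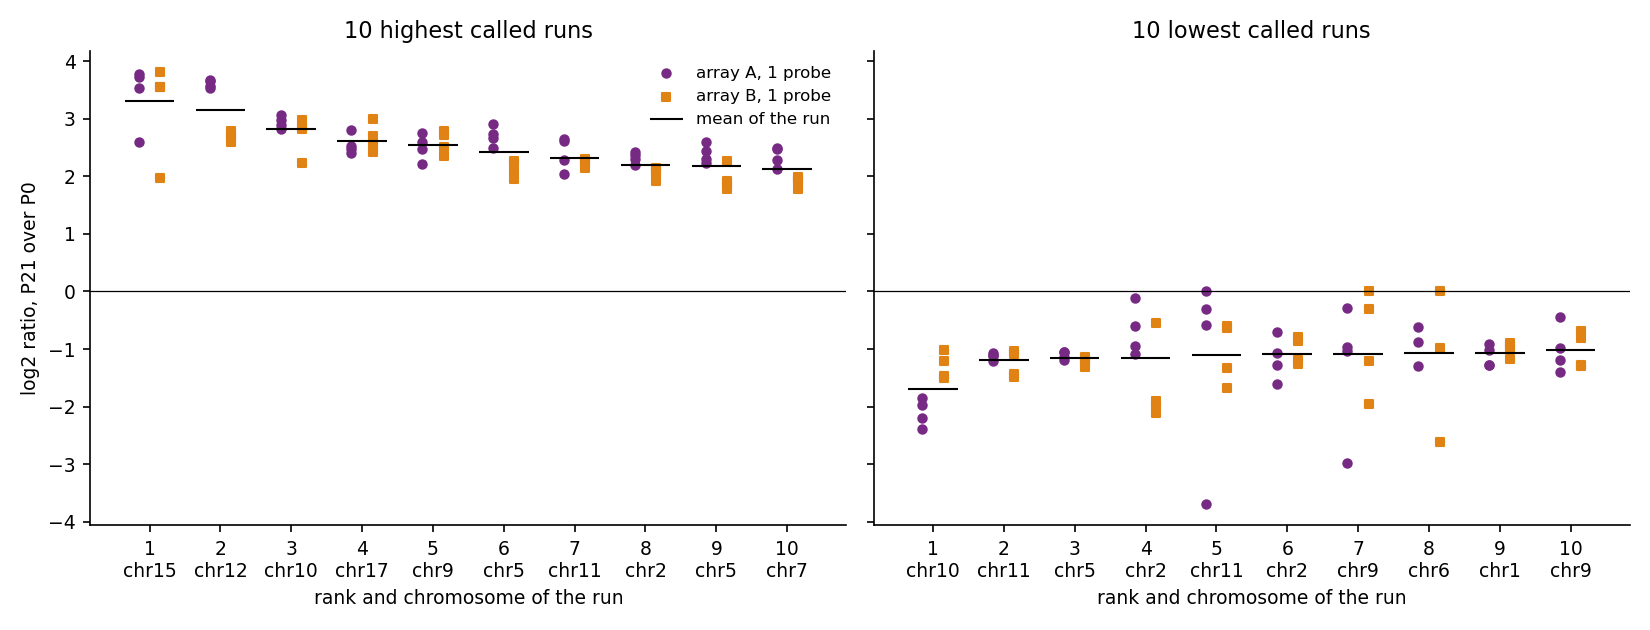
Each column is 1 of the 10 highest (left) or 10 lowest (right) longest-probe runs past the limma threshold, ordered by size and labelled by rank and chromosome. Circles are single probes in A, squares single probes in B, and the bar is the mean of the run on the log2 scale of P21 over P0. Probes of the highest runs lie between 1.77 and 3.80, while those of the lowest runs spread from -3.69 to 0.0084.

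In 7 of the called runs 1 age was not well above background at any probe on either array, 6 of them called lower (P21 not above background) and 1 called higher (P0 not above background). For these only a bound can be given, set against the lowest signal of a measured probe. A bound above 1 was obtained for chr13:20405726-20407144 alone, with a P21 signal at least 1.15-fold lower (limma adjusted p = 0.00739).

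The arrays lay furthest apart at chr5:148218029-148218554, with a log2 ratio of 0.47 in A and -1.29 in B over 2 kept probes and a log2 intensity of 5.16. At chr5:101515212-101515516 the values were 0.23 and -1.30, with a log2 intensity of 3.34 and no probe of either age well above background. Neither run was called.

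The longest-probe runs were unevenly spread over the 19 autosomes. They made up from 18.0% of the 4-probe runs of chromosome 11 to 37.0% of those of chromosome 3. Their mean log2 ratio lay below that of the shorter-probe runs on 15 of 19 chromosomes, the exceptions being chromosomes 9, 15, 17 and 19. They were called lower more often than the shorter-probe runs on 14 chromosomes and higher less often on 10. Among the longest-probe runs the share called higher was largest on chromosome 19 (11 of 79 runs, 13.9%) and smallest on chromosome 16 (4 of 90, 4.44%). The shorter-probe runs gave 10.9% on chromosome 19 and 9.28% on chromosome 16. More longest-probe runs were called lower than higher on chromosome 1 (10 lower and 9 higher of 185). The same held on chromosome 10 (10 lower and 7 higher of 134). Counts of this size per chromosome are small, and no difference between chromosomes was tested.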

How the data were processed

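Scanner files of the 2 arrays name Feature Extraction 10.5.1.1 in their headers, and version 9.1.3.1 stands in the submitters' processing notes. The authors deposited log10 ratios of Cy5 over Cy3 from signals corrected for background and scaled linearly between dyes. The processed intensity of each dye was deposited on a linear scale, and deposited flags hold 0 or 1. The authors' value table held the same log10 ratios with array A turned (largest difference 0.00496) and served as an alternative.

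Controls and 800 spots flagged as outliers on either array were removed, which kept 89726 of 90526 probes. Ratios were multiplied by 3.32, turned to P21 over P0, centred on each array's median and averaged per run, so the log2 values are a rescaling of the log10 ratios that the authors deposited. All runs with at least 2 kept probes (18761) entered 1 limma fit (version 3.58.1 in R 4.3.3, lmFit and eBayes, two-sided against 0). It draws the spread of each run towards a prior over all runs (SD 0.197 log2 units). This prior had 5.58 degrees of freedom, against 1 from the 2 arrays of a run. Data for 18761 runs were also simulated from limma's own model, with independent normal errors and the spread it had fitted. There limma recovered 81 of 100 runs changed by a log2 ratio of 1 and 100 of 100 changed by 2. It called 13 of the unchanged runs. The simulation held no dye effect and no dim probes with a ratio of 0, so it gives no error rate for the real arrays. The number of arrays limits the precision, and both share 1 scan time in the headers.

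Named are the 10 higher and the 10 lower runs of largest mean ratio in size past the threshold and of 1 sign on both arrays, and the 2 whose arrays differed most. The groups of runs and these rules were chosen with earlier results of these data known. Alternatives changed the background correction, normalisation, filters, gap, length threshold, run summary and limma settings. The gene, sequence and promoter tables at hand are on another build than mm8 and were not used here.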

Additional observations from a re-analysis of the deposited data

How the results depend on the processing

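No paired analysis was possible because each array already holds both ages, so the array is the pair. The mean difference between longest-probe and shorter-probe runs stayed below 0 in each alternative, from -0.118 (top decile of probe length) to -0.011 (gaps of at most 250 bp, with 0.039 in A and -0.060 in B). It was -0.071 with normexp alone, with 0.063 in A and -0.21 in B. With normexp and loess it was -0.025, with -0.0246 in A and -0.0254 in B. With loess on the processed signals it was -0.062, with -0.051 in A and -0.073 in B. In the main values, leaving out 1 array gave -0.114 to -0.022.

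The 180 runs called higher became 25 with normexp alone and 60 in the top decile of probe length, which holds 966 runs. The 108 called lower became 0 with normexp alone, 18 with normexp and loess, 41 with the median of a run's probes, 52 in the top decile and 50 with gaps of at most 250 bp (1714 runs). They became 171 with probes well above background only (2093 runs), 208 with gaps of at most 1000 bp (2874 runs) and 168 with a trend and robust limma. The 93 runs past the rule of size and higher became 61 with normexp alone, 46 with normexp and loess and 30 in the top decile. The 11 lower ones became 0 with normexp alone and with normexp and loess, 5 with gaps of at most 250 bp, 3 in the top decile and 14 to 18 with 1 array left out. Normexp alone leaves out both the linear scaling between dyes and the loess fit, apart from the centring on each array's median. With it the arrays differed by a median of 0.636 log2 units in the longest-probe runs, against 0.157 in the main values. The offset of 50, used in both normexp settings, draws dim ratios towards 0 by construction. The part of these or of other causes in the changed counts was not tested. The higher share of called longest-probe runs, 62.5% in the main values, was 60.3% with loess, 88.2% with normexp and loess, 100% with normexp alone (25 calls), 55.5% with probes well above background only and 51.5% with gaps of at most 1000 bp.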

Other observations

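Inner and outer probes of a run differed slightly. In 2269 longest-probe runs the mean of the inner probes exceeded that of the outer probes by 0.035 in A and by 0.042 in B (mean 0.039 ± 0.0050, SD, n = 2 arrays). In 6808 shorter-probe runs the same difference was 0.012 in A and 0.024 in B. The inner probes of the longest-probe runs were dimmer by 0.13 log2 units. The sign was the same on both arrays in both groups, and the cause was not tested.

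Longest-probe runs lay further from other runs. The median distance to the nearest run was 41612 bp, against 19200.5 bp for the shorter-probe runs, and 265 of them (11.1%) had another run within 5000 bp, against 1238 (17.7%). Of the 21 tested neighbours of runs called higher, 2 (9.52%) were called higher and 0 lower. Of the 14 tested neighbours of runs called lower, 0 were called higher and 2 (14.3%) lower. Over all 227 tested neighbours 3.96% were called higher and 4.41% lower, and over all runs tested 7.65% and 3.99%. For the shorter-probe runs called higher, 19 of 107 neighbours (17.8%) were higher and 3 lower. For those called lower, 2 of 47 were higher and 4 (8.51%) lower. Counts this small allow no reading of a shared direction. Over 227 pairs the log2 ratios of a longest-probe run and its neighbour had an r of 0.0992, a description over runs that share the same arrays.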
